A study of Danio rerio with 31 samples.

Results

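The genes described here encode enzymes that make or modify steroids, sterols, retinoids, fatty acids and foreign compounds in the zebrafish brain. They are the rows of the deposited table whose gene symbol, in lower case, begins with cyp and a digit, with hsd1, hsd3, srd5a or sult. The rule uses names and no measured value, though it was set with earlier results of these data known. It gave 74 of 15648 genes, and 1 further gene that matched is not reported here. The 74 genes fall into 6 role groups: 15 steroid-making enzymes, 10 enzymes of cholesterol, oxysterols and bile acids, 5 of retinoids and vitamin D, 5 other members of the 17-beta-hydroxysteroid dehydrogenase family, 28 cytochromes P450 of foreign compounds and fatty acids, and 11 sulfotransferases.

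Steroid synthesis begins in mitochondria, where CYP11A1 cleaves the side chain of cholesterol. The 3-beta-hydroxysteroid dehydrogenases, CYP17 and the 17-beta-hydroxysteroid dehydrogenases then shape progestogens and androgens, CYP21 and CYP11C1 lead to corticosteroids and 11-oxygenated androgens, aromatase (CYP19) makes estrogens, and 5-alpha-reductases make dihydro-androgens and neuroactive steroids. The teleost brain is known for strong aromatase activity in its radial glia. CYP26 enzymes clear retinoic acid, and sulfotransferases attach sulfate to steroids, phenols and amines.

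Each of the 31 one-colour arrays carried Cy3-labelled cDNA from a brain sample of an individual adult zebrafish aged 1 year, all labelled as control for treatment. There were 15 telencephalon arrays (8 female, 7 male) and 16 midbrain arrays (9 female, 7 male). The wild populations were Nadia and Pargana North and the domesticated ones Scientific Hatchery and Transgenic Mosaic 1, the last by its name a transgenic line whose transgene the labels do not describe. Every group of region and population held 4 arrays, with 2 females and 2 males, except Scientific Hatchery, which had 2 females and 1 male in telencephalon and 3 females and 1 male in midbrain. Array codes give the region (T or M) and the number in the label. Values are log2 expression values per gene, and a difference of 1 is a 2-fold change. They are not comparable between genes, since each gene has its own probes.

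The regions matched their labels. Of 10 telencephalon marker genes, 9 were higher in telencephalon (median difference 3.51 on the log2 scale), and 8 of 8 midbrain marker genes were lower there (median -3.46). The midbrain arrays also carried more signal for adjoining and other tissue. Of 7 cerebellar markers 6 were lower in telencephalon, as were 5 of 9 hypothalamic, 5 of 6 oligodendrocyte, 6 of 8 endothelial and meningeal, 4 of 6 microglial and leukocyte, 3 of 6 pituitary and 3 of 4 red cell markers. Arrays correlated with their region's median profile at 0.971 to 0.988 in telencephalon and 0.981 to 0.991 in midbrain, with T140, T109 and T99 lowest. Of the 74 genes, 34 lay in the dimmest 25% of the array by mean value, among them 7 of the 15 steroid-making enzymes and 9 of the 11 sulfotransferases, so small differences in them are the least certain.

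The comparison of regions asked where these enzymes are expressed. Aromatase (CYP19A1, ENSDARG00000041348) was lower in telencephalon than in midbrain, and so was cyp11c1, the 11-beta-hydroxylase of cortisol and 11-oxygenated androgens. SRD5A3, which also serves the dolichol pathway of glycosylation, hsd17b2, which inactivates estradiol and testosterone, and hsd3b2 were slightly higher in telencephalon. The other 10 steroid-making enzymes did not pass an adjusted p of 0.05. In the whole set, 24 of 74 genes (32.4%) passed, 8 higher and 16 lower in telencephalon, against 43.6% of all genes (21.6% higher and 22.1% lower). At an unadjusted p under 0.05 there were 27 of 74, against 49.7% of all genes. The median difference of the 74 genes was -0.04 against 0.01 for all genes.

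CYP19A1 had log2 values of 4.71 to 6.94 (median 5.72) on the 15 telencephalon arrays and 6.19 to 7.66 (median 7.04) on the 16 midbrain arrays. The ranges overlapped, but all 15 numbers present in both regions were lower in telencephalon. The fitted difference was -1.14 (SE 0.15, adjusted p = 6.4e-07), a 2.21-fold lower level of a gene that is among the dimmest 25%, and it lay between -1.33 and -1.06 in the 4 populations. The reference names an aromatase expressed mainly in the ovary, cyp19a1a, for which it lists CYP19a1 as a synonym, and a brain form, cyp19a1b. The brain form was not analysed here. Of 10 radial glia marker genes 4 were higher and 2 lower in telencephalon, and their mean level was 9.87 to 10.72 there against 10.13 to 10.45 in midbrain. In these tissue samples, fewer cells of a type and less RNA per cell cannot be told apart.

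cyp11c1 ranged from 5.75 to 8.16 (median 6.76) in telencephalon and from 6.61 to 8.59 (median 7.68) in midbrain. It was lower in telencephalon in 14 of 15 numbers, with a difference of -0.63 (SE 0.21, adjusted p = 0.018). After quantile normalization the difference was -0.49 and no longer passed (adjusted p = 0.067). Nor did it pass without Pargana North (adjusted p = 0.069) or Scientific Hatchery (adjusted p = 0.066). The highest telencephalon value, 8.16, was that of T106, a Nadia male whose midbrain array also gave the highest midbrain value, 8.59.

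SRD5A3 was higher in telencephalon by 0.30 (SE 0.09, adjusted p = 0.0097) and in 13 of 15 numbers. The call was lost without Pargana North (adjusted p = 0.069) or Scientific Hatchery (adjusted p = 0.052). hsd3b2 was higher by 0.22 (SE 0.07, adjusted p = 0.013) and in 12 of 15 numbers, from a dim signal of 4.97 to 5.82 over all arrays. Its call was lost without Nadia (adjusted p = 0.059) or Transgenic Mosaic 1 (adjusted p = 0.11). hsd17b2 was higher by 0.27 (SE 0.10, adjusted p = 0.038) in 9 of 15 numbers, and this call was lost on leaving out any of 14 single arrays. Its spread differed between regions: the SD was 0.43 in telencephalon and 0.16 in midbrain, and its Transgenic Mosaic 1 telencephalon arrays, at 9.13 to 9.49, lay above all 16 midbrain arrays (8.46 to 8.94).

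For the remaining 10 steroid-making enzymes no region difference passed (adjusted p of 0.20 or more). The symbol CYP11A1, of the side-chain cleavage enzyme, is given to a pair of Ensembl gene IDs, each with its own row. Both rows are among the dimmest 25%. The row ENSDARG00000092696 differed by 0.02 (SE 0.20) and the row ENSDARG00000002347 by -0.02 (SE 0.15). CYP17A1, the 17-alpha-hydroxylase with lyase activity, differed by -0.05 (SE 0.11) and its paralog cyp17a2, which in fish lacks most of the lyase activity, by 0.22 (SE 0.17). The 21-hydroxylase gene cyp21a2 differed by -0.02 (SE 0.08), hsd3b1 by 0.37 (SE 0.22), and HSD11B2, which inactivates cortisol, by 0.22 (SE 0.29). hsd11b1la, related to the enzyme that regenerates cortisol in mammals, differed by -0.07 (SE 0.18), SRD5A1 by -0.05 (SE 0.11) and SRD5A2 by -0.10 (SE 0.09).

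**Figure D1:**
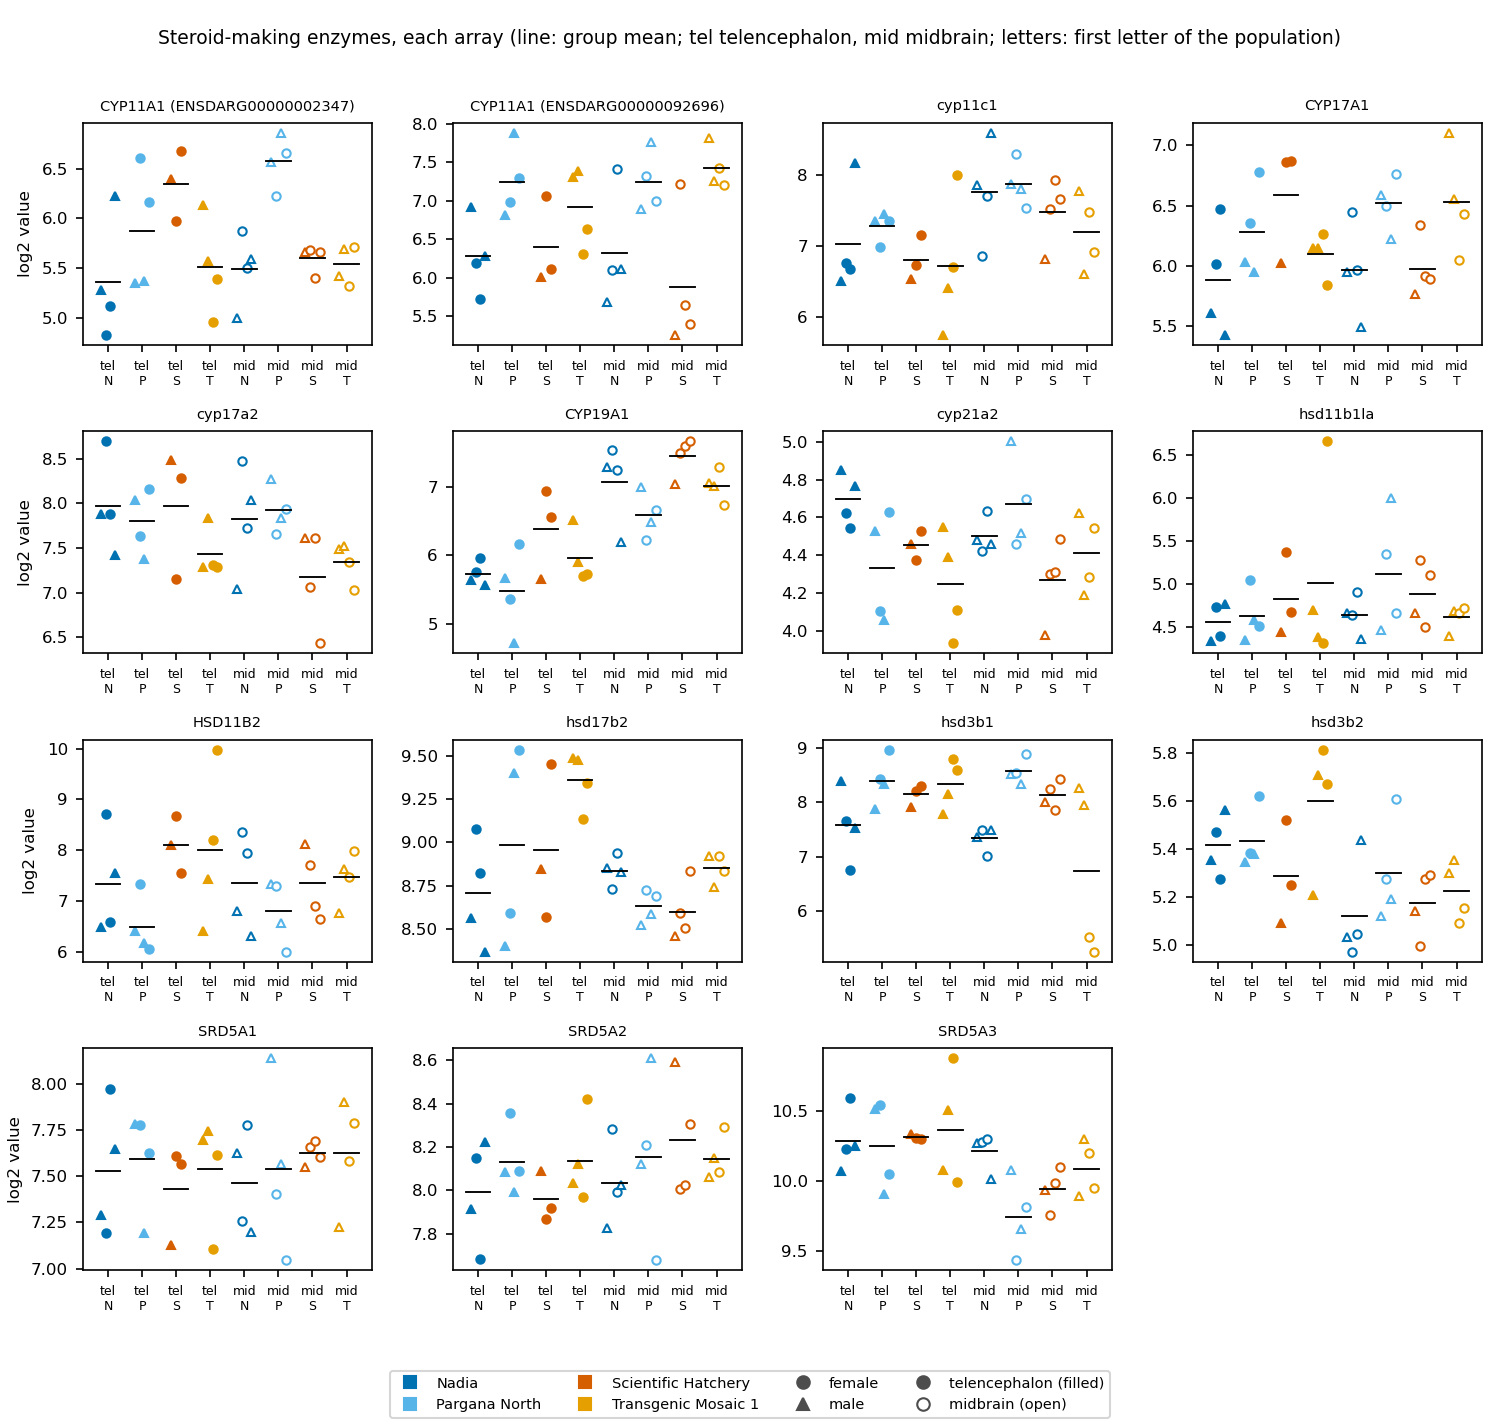
Log2 value of the 15 steroid-making enzymes on every array, by region and population (tel, telencephalon; mid, midbrain; the letter is the population's initial). Circles are females, triangles males, filled symbols telencephalon, open symbols midbrain, and the line is the group mean. CYP19A1 sits lower in telencephalon (median 5.72) than in midbrain (median 7.04), and hsd3b1 shows a pair of low midbrain arrays of Transgenic Mosaic 1 at 5.53 and 5.26.

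The retinoid enzymes held the widest region difference of the set. CYP26B1, which degrades retinoic acid, had log2 values of 7.02 to 9.003 (median 7.87) in telencephalon and 11.84 to 12.59 (median 12.19) in midbrain. No telencephalon array reached any midbrain array. This held for 1 of the 74 genes, CYP26B1, while 6.13% of all genes had regions that did not overlap (2.28% higher and 3.85% lower in telencephalon). The difference was -4.23 (SE 0.16, adjusted p = 8.0e-17), an 18.8-fold lower level in telencephalon, and it lay between -4.42 and -4.05 in the 4 populations.

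The other CYP26 genes went the opposite way. CYP26A1 was 10.17 to 11.47 (median 10.95) in telencephalon and 9.23 to 10.33 (median 9.86) in midbrain, and was higher in telencephalon by 0.96 (SE 0.14, adjusted p = 4.4e-06) in all 15 numbers. CYP26C1 was 4.81 to 8.88 (median 6.32) in telencephalon and 4.96 to 6.23 (median 5.40) in midbrain, and was higher by 1.14 (SE 0.23, adjusted p = 2.0e-04) in 14 of 15 numbers. Its SD was 1.13 in telencephalon against 0.30 in midbrain. CYP27C1, which converts vitamin A1 to A2 in fish, differed by -0.92 (SE 0.22, adjusted p = 0.0013) and was lower in telencephalon in 13 of 15 numbers. CYP2R1, the vitamin D 25-hydroxylase, differed by -0.17 (SE 0.13) and did not pass.

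**Figure D2:**
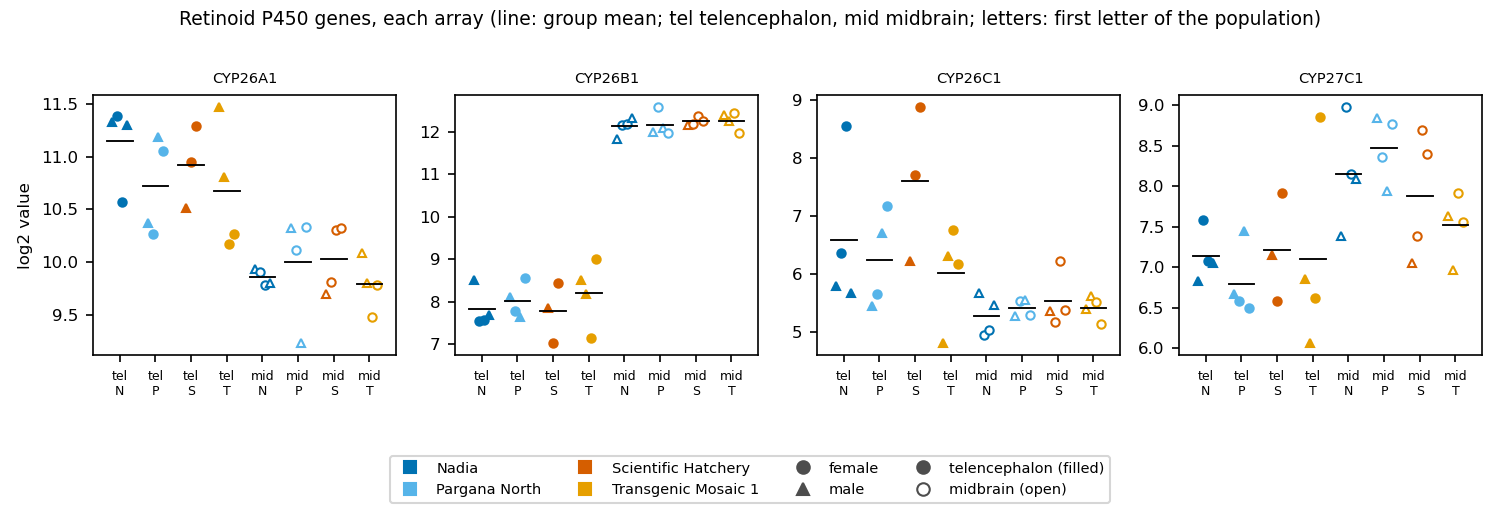
Log2 value of CYP26A1, CYP26B1, CYP26C1 and CYP27C1 on every array by region and population, with symbols as for the steroid-making enzymes and the line at the group mean. CYP26B1 separates the regions in full (7.02 to 9.003 against 11.84 to 12.59), while the values of the other genes overlap.

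Among the cholesterol, oxysterol and bile acid enzymes, 2 were higher and 2 lower in telencephalon out of 10 (40%, against 43.6% of all genes). CYP7B1, the oxysterol 7-alpha-hydroxylase that also acts on neurosteroids, was 8.34 to 9.81 (median 9.24) in telencephalon and 9.77 to 11.01 (median 10.38) in midbrain. It was lower in telencephalon in all 15 numbers, with a difference of -1.18 (SE 0.14, adjusted p = 1.8e-07), with a marginal overlap of the groups. CYP8B1, the sterol 12-alpha-hydroxylase of bile acid synthesis, differed by -0.68 (SE 0.16, adjusted p = 0.00094). cyp27a2, a sterol 27-hydroxylase gene, was higher by 0.59 (SE 0.14, adjusted p = 0.0014) in 14 of 15 numbers, and HSD3B7, which acts on bile acid precursors, by 0.27 (SE 0.07, adjusted p = 0.0038). The HSD3B7 call was lost without Scientific Hatchery (0.20, adjusted p = 0.093). cyp27a1.1, cyp27a3, cyp39a1, CYP7A1 and the cholesterol 24-hydroxylase genes cyp46a1.1 and cyp46a1.3 did not pass, with differences between -0.21 and 0.15.

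Of the 28 cytochromes P450 of foreign compounds and fatty acids, 8 were lower in telencephalon and 0 higher at an adjusted p under 0.05. That is 28.6% of the group, against 43.6% of all genes (22.1% lower and 21.6% higher). CYP1B1, an enzyme of estradiol, retinoids and polycyclic compounds, was 7.998 to 10.03 (median 9.64) in telencephalon and 9.96 to 11.60 (median 10.91) in midbrain, and it differed by -1.37 (SE 0.20, adjusted p = 5.3e-06). The ranges met only at their ends, and 14 of 15 numbers were lower in telencephalon. cyp2n13 followed with -1.18 (SE 0.17), cyp2ad2 with -0.80 (SE 0.27), cyp2ad6 with -0.77 (SE 0.17), cyp4t8 with -0.74 (SE 0.09), cyp2p6 with -0.71 (SE 0.18), cyp2ae1 with -0.71 (SE 0.17) and cyp2p7 with -0.56 (SE 0.20). The cyp2p7 call was lost on shifting the arrays to the same median (-0.50, adjusted p = 0.052), and without T57 the cyp2ad2 call was lost (adjusted p = 0.068). For cyp2p7 the midbrain array M119 had 7.22, far below the 9.59 to 10.73 of the other midbrain arrays. The other 20 genes of the group ranged from -0.38 to 0.25.

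Of these genes, 11 lie in a run in the RefSeq annotation (assembly GRCz12tu): cyp2n13, cyp2ad6, cyp2ad2, cyp2v1, cyp2ad3, cyp2p6 to cyp2p10 and cyp2j20. Another protein-coding gene may lie between neighbours of the run. The 11 genes are fish relatives of the mammalian CYP2J epoxygenases of arachidonic acid. In this run 5 of 11 genes were lower in telencephalon (cyp2n13, cyp2ad6, cyp2ad2, cyp2p6 and cyp2p7), against 22.1% of all genes. Of all genes, 43.6% passed in either direction. Without Nadia the calls of cyp2ad2 (adjusted p = 0.16) and cyp2p7 (adjusted p = 0.13) were lost. The other 6 genes of the run did not pass, with differences from -0.27 (cyp2ad3, SE 0.12) to 0.22 (cyp2p9, SE 0.15). Neighbouring paralogs can be near-identical, so probes may be shared between them. Whether they are was not tested.

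Of the sulfotransferases, sult1st5, of the phenol-sulfating family, differed by -1.04 (SE 0.16, adjusted p = 1.1e-05) and was lower in telencephalon in all 15 numbers, at 5.14 to 7.44 (median 6.27) against 6.17 to 8.29 (median 7.26). sult2st3, of the hydroxysteroid-sulfating family, was higher by 0.64 (SE 0.10, adjusted p = 7.4e-06) in all 15 numbers, at 11.14 to 12.66 (median 11.54) against 10.49 to 11.38 (median 10.95). The other 9 sulfotransferases did not pass and ranged from -0.32 to 0.07. In the 17-beta-hydroxysteroid dehydrogenase family, HSD17B12, a 3-ketoacyl-CoA reductase of fatty acid elongation, differed by -0.41 (SE 0.12, adjusted p = 0.0074) and was lower in telencephalon in 14 of 15 numbers. Its call was lost without Scientific Hatchery (-0.34, adjusted p = 0.061). Its paralog hsd17b12b differed by -0.05 (SE 0.06).

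**Figure D3:**
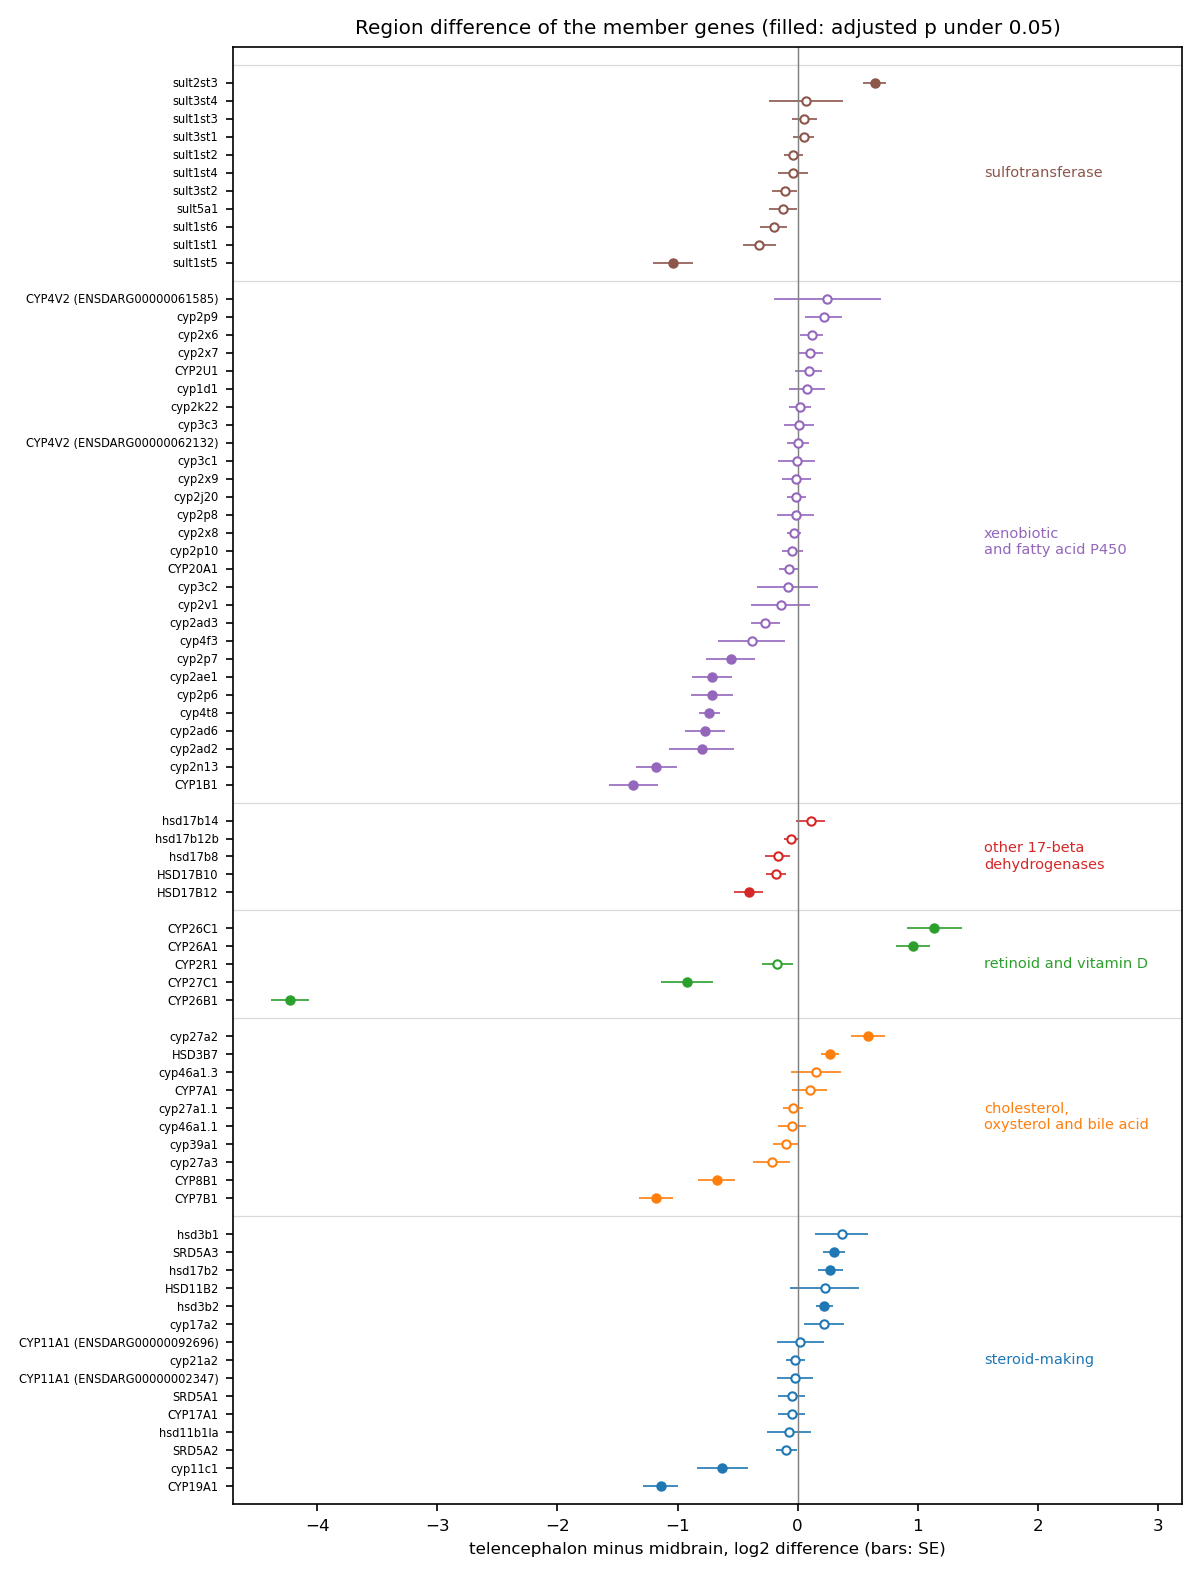
Telencephalon minus midbrain difference of all 74 genes on the log2 scale, grouped by role, with bars for 1 SE on each side. Filled points passed an adjusted p of 0.05 over all 15648 genes. CYP26B1 stands far to the left at -4.23. The P450 genes of foreign compounds and fatty acids have filled points only on the side of lower telencephalon levels. Their share of filled points is 28.6%, against 43.6% of all genes.

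Markers of several other tissues moved with these region differences. The mean level of the oligodendrocyte markers was 10.08 to 11.27 in telencephalon and 11.77 to 12.40 in midbrain, and that of the endothelial and meningeal markers 8.09 to 9.15 against 9.20 to 10.55. Hypothalamic markers had mean levels of 5.93 to 8.88 against 7.49 to 10.19, and cerebellar markers of 9.28 to 9.98 against 11.31 to 12.39. Their part in the enzyme differences was not tested.

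Partner genes of the same pathways were read from lists. Of 24 genes of cholesterol supply and electron transfer, 3 were higher and 6 lower in telencephalon, among them fdx1b, a ferredoxin that feeds electrons to mitochondrial P450 enzymes (0.76, SE 0.15), and tspo, a mitochondrial outer membrane protein (-0.53, SE 0.10). Of 16 steroid receptors and regulators, 6 were higher and 4 lower. NR5A1, the steroidogenic factor that also marks the hypothalamus and pituitary, differed by -3.21 (SE 0.27), and the progesterone receptor gene PGR by 1.36 (SE 0.31). Of 33 other steroid- and lipid-modifying enzymes, 5 were higher and 10 lower, with the steroid sulfatase gene STS at 1.77 (SE 0.16) and the prostaglandin synthase gene PTGS2 at 2.14 (SE 0.15). In retinoid metabolism, ALDH1A2, which makes retinoic acid, differed by -2.05 (SE 0.23) and DHRS3, which returns retinal to retinol, by -1.51 (SE 0.10). Of 25 genes of xenobiotic and retinoid sensing, 6 were higher and 11 lower, with the retinoid receptor genes RXRA at -1.96 (SE 0.06) and raraa at -2.10 (SE 0.18). The median region differences of the 4 lists, in the order given, were 0.07, 0.11, -0.03 and -0.12, against 0.01 for all genes. Of all genes, 21.6% were higher and 22.1% lower in telencephalon.

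The comparison of the sexes asked whether enzymes of sex steroid synthesis differ between female and male brains. No gene of the 74 passed in telencephalon, in midbrain or in the difference between them, where limma called 0.032%, 0.00639% and 0% of all genes. At an unadjusted p under 0.05 there were 8, 4 and 1 genes of the 74, and 10.7%, 4.13% and 3.29% of all genes.

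Of the steroid-making enzymes, CYP17A1 had the smallest p in telencephalon. It was 5.84 to 6.87 (median 6.42) in 8 females and 5.43 to 6.15 (median 6.03) in 7 males. The sexes overlapped, with lower male means in 3 of 4 populations and a fitted male minus female difference of -0.48 (SE 0.16, adjusted p = 0.33). The Scientific Hatchery male mean is 1 array. In midbrain the CYP17A1 difference was -0.09 (SE 0.16). HSD11B2 was 6.05 to 9.98 (median 7.88) in telencephalon females and 6.18 to 8.10 (median 6.48) in males, a difference of -0.87 (SE 0.41, adjusted p = 0.46). T109, at 9.98, lay above the 6.41 to 8.21 of the other arrays of its population. T109 also had the highest eye and pineal marker score of the telencephalon arrays (2.26, the next being 1.04) and the lowest hypothalamic and preoptic score (-1.78), and the part of these in its values was not tested. The midbrain difference of HSD11B2 was -0.28 (SE 0.41).

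CYP19A1, the aromatase row analysed here, did not differ between the sexes beyond its error. It is among the dimmest 25%, and the brain form cyp19a1b was not analysed. CYP19A1 was 5.36 to 6.94 (median 5.86) in telencephalon females and 4.71 to 6.51 (median 5.66) in males, a difference of -0.29 (SE 0.21, adjusted p = 0.63). In midbrain it was 6.23 to 7.66 (median 7.29) in females and 6.19 to 7.29 (median 7.01) in males, and the fitted difference was -0.20 (SE 0.21, adjusted p = 1.0). hsd3b1 differed by -0.21 (SE 0.32) in telencephalon and by 0.66 (SE 0.32, unadjusted p = 0.048, adjusted p = 1.0) in midbrain, where the low females were M12 and M109 of Transgenic Mosaic 1.

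The other steroid-making enzymes had male minus female differences between -0.46 and 0.36 in telencephalon, all with an adjusted p of 0.54 or more. There, hsd11b1la was at -0.46 (SE 0.26), CYP11A1 at 0.36 (SE 0.28) for ENSDARG00000092696 and 0.13 (SE 0.22) for ENSDARG00000002347, cyp11c1 at -0.19 (SE 0.30), cyp21a2 at 0.17 (SE 0.11) and cyp17a2 at -0.01 (SE 0.24). hsd3b2 was at -0.15 (SE 0.10), hsd17b2 at -0.14 (SE 0.15), SRD5A1 at -0.07 (SE 0.16), SRD5A2 at -0.01 (SE 0.12) and SRD5A3 at -0.13 (SE 0.13). In midbrain the same genes ranged from -0.29 for CYP11A1 (ENSDARG00000092696, SE 0.28) to 0.13 for SRD5A2 (SE 0.12), and between them lay CYP11A1 (ENSDARG00000002347) at 0.00, cyp11c1 at 0.05, cyp17a2 at 0.12, cyp21a2 at -0.05, hsd11b1la at -0.11, hsd17b2 at -0.09, hsd3b2 at 0.03, SRD5A1 at 0.09 and SRD5A3 at 0.03.

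Outside the steroid-making group, cyp27a3, a sterol 27-hydroxylase gene, was nominally higher in males in both regions. In telencephalon it was 9.94 to 11.59 (median 11.25) in females and 10.56 to 12.34 (median 11.41) in males. In midbrain it was 10.44 to 11.51 (median 11.34) in females and 11.37 to 12.50 (median 11.74) in males. The sexes overlapped, but the male mean was above the female mean in 4 of 4 populations in each region. In Scientific Hatchery that mean is 1 male array per region, and the regions share most numbers, so they are not independent looks. The differences were 0.62 (SE 0.22, adjusted p = 0.34) and 0.83 (SE 0.22, adjusted p = 0.78), and over means of both regions per number, a setting chosen after seeing the data, 0.72 (SE 0.19, adjusted p = 0.60). CYP26C1 had the smallest p of the set in telencephalon, at 5.65 to 8.88 (median 6.97) in females and 4.81 to 6.72 (median 5.80) in males, a difference of -1.18 (SE 0.32, adjusted p = 0.25). The arrays above all males were T123, T130, T47, T13 and T12, all female. The hypothalamic and preoptic markers tended to go the opposite way from this gene. Their score against the region's mean was -0.96, -0.99, 0.18, -1.20 and -1.65 in these arrays. It was 0.94 to 1.16 in T98, T7, T99, T106, T21 and T85, whose CYP26C1 values were 4.81 to 6.36. T109 had the lowest score, -1.78, at a CYP26C1 value of 6.18. T63, T57 and T140 scored -0.89, 0.79 and 0.35, at CYP26C1 values of 6.32, 6.22 and 6.72. The median male minus female difference of these 9 markers was 0.73 in telencephalon, with 0 of 9 passing, and their part in the CYP26C1 difference was not tested. In midbrain the male minus female difference of CYP26C1 was 0.15 (SE 0.32), and the sex difference did not pass between regions (-1.34, SE 0.46, adjusted p = 1.0).

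**Figure D4:**
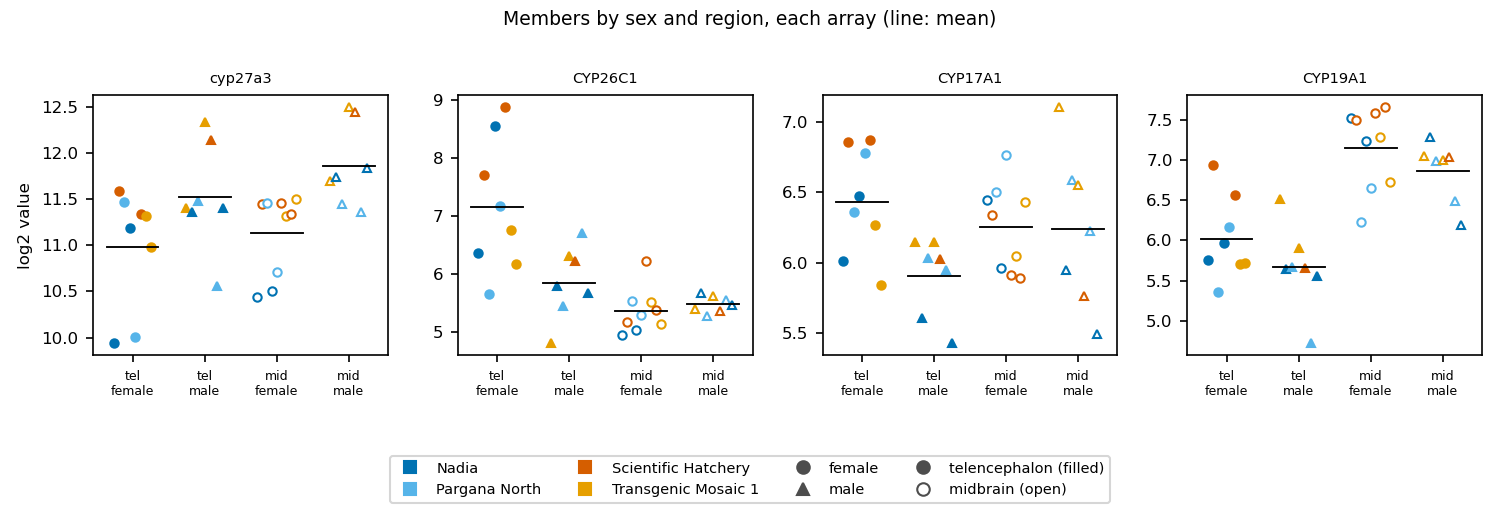
Log2 values of cyp27a3, CYP26C1, CYP17A1 and CYP19A1 on every array by region and sex, coloured by population, with the line at the mean. Males sit higher in cyp27a3 (midbrain medians 11.74 and 11.34) and the highest CYP26C1 telencephalon values are female, but no difference passed an adjusted p of 0.05.

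None of the pathway lists held a gene that passed between the sexes in either region. Over means of both regions per number, 0 of 74 genes passed and 2 had an unadjusted p under 0.05, against 0.00639% and 6.79% of all genes.

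The comparison of the 4 populations asked whether the enzymes varied with origin and domestication. Among populations, 8 of 74 genes passed the moderated F test in telencephalon (10.8%, against 6.44% of all genes) and 6 in midbrain (8.11%, against 3.29%). At an unadjusted p under 0.05 there were 28 and 25 genes of the 74, against 23% and 16.9% of all genes, and the median F was 1.92 and 2.04 against 1.48 and 1.14. The genes sult3st1, sult3st4 and cyp2j20 passed in both regions, and each of them is among the dimmest 25%. Of the steroid-making enzymes 0 of 15 passed in telencephalon, where 4 had an unadjusted p under 0.05, and 2 of 15 in midbrain, where CYP11A1 (ENSDARG00000092696) and hsd3b1 passed. This CYP11A1 row is also among the dimmest 25%, and hsd3b1 is not. Because the 2 regions share most numbers, they do not give independent looks at a population.

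CYP11A1 on the row ENSDARG00000092696 was, in midbrain, 5.69, 6.09, 7.41 and 6.11 in Nadia, 6.89, 7.32, 7.76 and 7.001 in Pargana North, 5.25, 7.21, 5.64 and 5.40 in Scientific Hatchery and 7.81, 7.26, 7.42 and 7.20 in Transgenic Mosaic 1. Pargana North and Transgenic Mosaic 1 were high on every array, while Nadia and Scientific Hatchery each had 1 array, M130 and M47, at the level of the others. The F was 7.70 (adjusted p = 0.034), and the call was lost on leaving out any of 9 single arrays, with the region fitted alone (6.75, adjusted p = 0.081) and without Pargana North 21 (6.69, adjusted p = 0.069). In telencephalon the F was 2.50 (adjusted p = 0.29), with means of 6.28 ± 0.49 (SD, n = 4) in Nadia, 7.24 ± 0.47 (n = 4) in Pargana North, 6.39 ± 0.58 (n = 3) in Scientific Hatchery and 6.91 ± 0.53 (n = 4) in Transgenic Mosaic 1.

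The other Ensembl gene ID under the symbol CYP11A1, ENSDARG00000002347, had a different population pattern. In midbrain its Pargana North arrays, at 6.56, 6.23, 6.86 and 6.66, lay above the other 12, which ranged from 5.005 to 5.87. Its F of 6.25 did not pass (adjusted p = 0.067), but with each region fitted alone it was 16.3 (adjusted p = 0.010). In telencephalon the F was 3.92 (adjusted p = 0.14), with Scientific Hatchery highest at 6.35 ± 0.35 (SD, n = 3). The pituitary marker list also differed in midbrain, with 3 of 6 genes past the F test, and its score above the region's mean was 3.18 in M85, 2.20 in M13, 0.92 in M21 and 0.10 in M140 of Pargana North, against -1.06 to 0.82 in the other arrays. Its part in the CYP11A1 level was not tested.

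hsd3b1, which converts pregnenolone to progesterone, was in midbrain 7.36, 7.49, 7.01 and 7.50 in Nadia, 8.52, 8.54, 8.33 and 8.89 in Pargana North and 7.999, 8.23, 7.85 and 8.43 in Scientific Hatchery. In Transgenic Mosaic 1 the males M99 and M63 had 8.26 and 7.94 and the females M12 and M109 had 5.53 and 5.26. The telencephalon arrays of the same numbers, T12 and T109, had 8.78 and 8.59, so the low values were seen in midbrain alone. All 4 Nadia arrays lay below every array of Pargana North and Scientific Hatchery. The F was 7.54 (adjusted p = 0.037), and the call was lost on leaving out any of 10 single arrays. It was also lost with no sex term (6.35, adjusted p = 0.058), with the region fitted alone (6.01, adjusted p = 0.10) and without Pargana North 21 (6.06, adjusted p = 0.089). Without M12 and M109, a setting chosen after seeing the data, the F was 7.10 (adjusted p = 0.071). Those arrays had correlations of 0.991 and 0.987 with the region's median, and the cause of their low hsd3b1 values was not tested. In telencephalon the F was 1.45 (adjusted p = 0.50).

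The remaining steroid-making enzymes did not pass among populations in either region. The F values in telencephalon and midbrain were 2.72 and 2.54 for CYP19A1, 2.51 and 4.37 for CYP17A1, 1.18 and 2.29 for cyp17a2, 3.41 and 2.53 for cyp21a2, 0.77 and 1.08 for cyp11c1, 3.04 and 0.56 for HSD11B2, and 0.63 and 0.86 for hsd11b1la. They were 3.52 and 0.95 for hsd17b2, 1.79 and 0.59 for hsd3b2, 0.18 and 0.29 for SRD5A1, 0.56 and 0.63 for SRD5A2, and 0.14 and 2.51 for SRD5A3. The CYP19A1 mean was in both regions lowest in Pargana North (5.48 ± 0.61 and 6.59 ± 0.32, SD, n = 4 each) and highest in Scientific Hatchery (6.39 ± 0.66, n = 3, and 7.45 ± 0.28, n = 4), with an adjusted p of 0.25 and 0.38.

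The widest population differences lay in sulfotransferases and P450 genes. sult3st1 was 4.46, 4.99, 4.33 and 4.41 in the Transgenic Mosaic 1 telencephalon and 4.66, 4.31, 4.31 and 4.12 in its midbrain. The 3 other populations had 5.03 to 6.04 in telencephalon and 5.01 to 6.18 in midbrain. Transgenic Mosaic 1 lay below every array of the others in both regions. The F was 17.5 (adjusted p = 0.00064) in telencephalon and 24.97 (adjusted p = 8.8e-05) in midbrain, and leaving out any single array kept both calls.

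sult3st4 split one population. In Pargana North it was 6.78, 8.24 and 7.08 in T21, T140 and T13 and 7.59, 7.08 and 7.55 in M21, M140 and M13, but 4.27 and 3.98 in T85 and M85. All arrays of the other populations lay between 3.73 and 4.64. The level thus went with the number and not with the whole population, and the same numbers were high in both regions. The F was 7.51 (adjusted p = 0.026) in telencephalon and 7.88 (adjusted p = 0.032) in midbrain. Without both arrays of Pargana North 21 both calls were lost (telencephalon F 5.29, adjusted p = 0.085; midbrain F 4.54, adjusted p = 0.18).

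cyp4f3, whose human namesake inactivates leukotriene B4, showed the same numbers high. It was 8.84, 10.02 and 8.61 in T21, T140 and T13 and 9.44, 9.97 and 9.24 in M21, M140 and M13, against 7.07 and 6.99 in T85 and M85 and 6.06 to 7.88 in the other populations. The F was 6.50 (adjusted p = 0.040) in telencephalon and 5.65 (adjusted p = 0.087) in midbrain. The telencephalon call was lost on leaving out any of 11 single arrays, and without T140 the F was 3.47 (adjusted p = 0.17).

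cyp2j20, of the neighbouring run of cyp2 genes, was lowest in Nadia in both regions. It was 6.51, 6.20, 6.60 and 6.28 in the Nadia telencephalon and 6.33, 6.62, 5.99 and 6.68 in its midbrain. The other populations had 6.64 to 7.30 and 6.69 to 7.58, with no overlap in either region. The F was 9.41 (adjusted p = 0.011) in telencephalon and 11.0 (adjusted p = 0.0084) in midbrain, and without T7 the telencephalon call was lost (adjusted p = 0.055). cyp4t8 was highest in the Nadia midbrain, at 9.05, 8.79, 8.89 and 8.58 against 7.27 to 8.45 in the others, with an F of 13.7 (adjusted p = 0.0031). The cyp4t8 telencephalon F was 4.71 (adjusted p = 0.091).

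cyp39a1, the 7-alpha-hydroxylase of 24-hydroxycholesterol, had the largest telencephalon F of the set. It was 10.30, 9.71, 9.43 and 10.07 in Pargana North, 10.80, 11.14, 11.07 and 10.81 in Nadia, 11.81, 11.38 and 10.98 in Scientific Hatchery and 11.12, 10.98, 10.73 and 10.26 in Transgenic Mosaic 1. Pargana North was lowest, and its highest array, at 10.30, overlapped only the lowest of Transgenic Mosaic 1. The F was 18.5 (adjusted p = 0.00044). In midbrain Pargana North was also lowest (10.44 ± 0.18, SD, n = 4), while the F did not pass.

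The other telencephalon calls were closer to the threshold. hsd17b14, an oxidative hydroxysteroid dehydrogenase, was highest in Transgenic Mosaic 1 (7.86 ± 0.28, SD, n = 4, against means of 6.86 to 7.35; F 6.89, adjusted p = 0.034), but in midbrain the highest mean was that of Pargana North (7.72 ± 0.25, n = 4; F 6.44, adjusted p = 0.061). HSD17B12 was highest in Pargana North in telencephalon (11.63 ± 0.17, n = 4, against 10.69 to 10.82; F 6.53, adjusted p = 0.039), and without T13 its adjusted p was 0.13. sult1st6, a gene among the dimmest 25%, had an F of 6.19 (adjusted p = 0.047), and its call was lost on leaving out any of 26 single arrays.

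**Figure D5:**
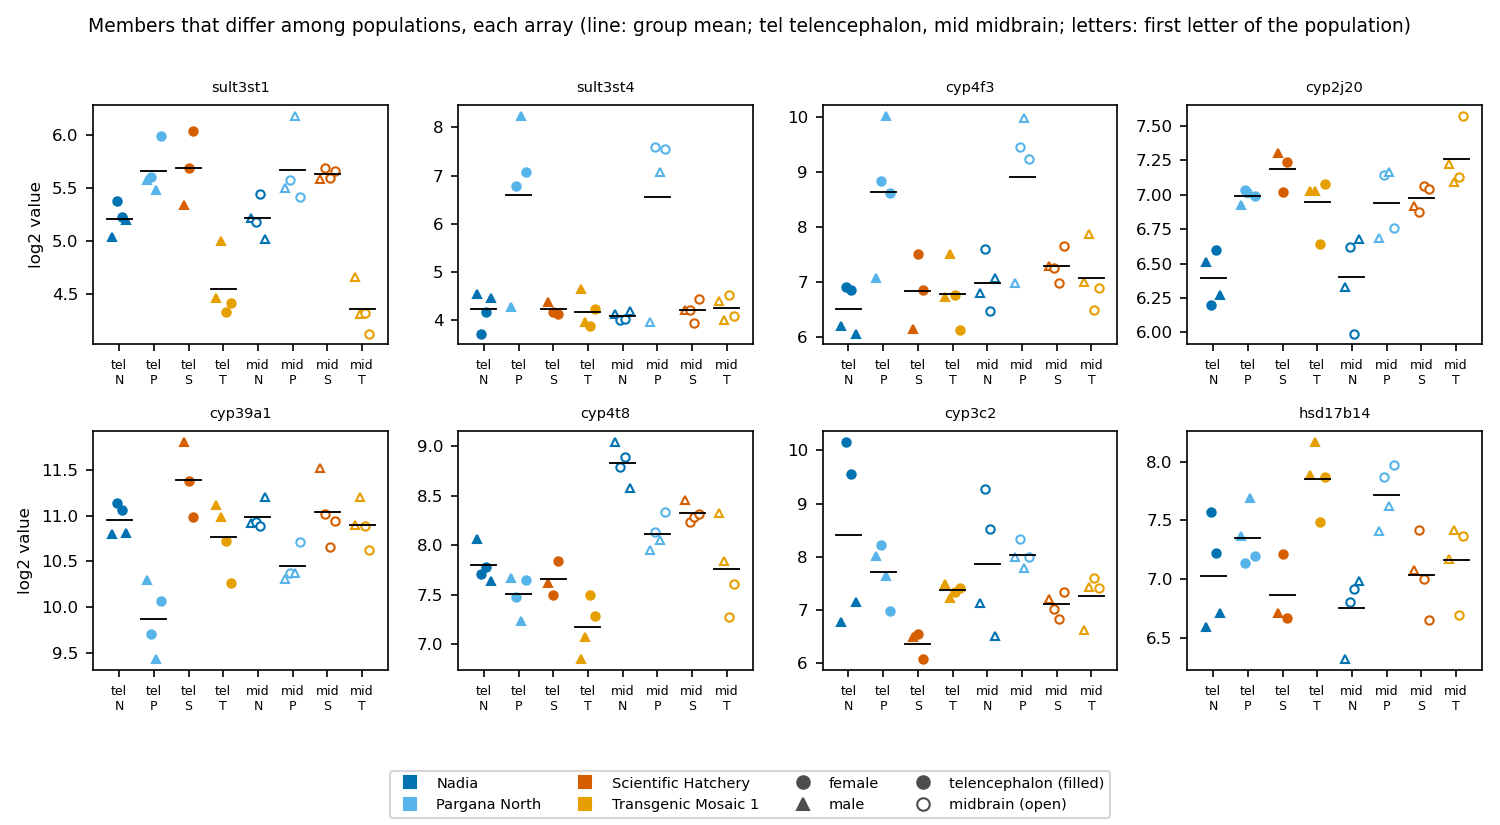
Log2 values on every array, by region and population, of genes named in the population comparison, with symbols as above and the line at the group mean. One of them, cyp3c2, did not pass among populations. Transgenic Mosaic 1 lies lowest in sult3st1 and Nadia in cyp2j20. In sult3st4 and cyp4f3, 3 of the 4 Pargana North numbers are high in both regions and number 85 is not.

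cyp3c2, a CYP3-family gene, did not pass among populations (telencephalon F 5.49, adjusted p = 0.064), but its Nadia arrays were far apart. The females T7 and T130 had 10.17 and 9.55 and M7 and M130 had 9.28 and 8.52, while the males T98, T106, M98 and M106 had 6.78, 7.14, 7.12 and 6.51. Every array of the other populations lay between 6.07 and 8.34.

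Wild minus domesticated, the contrast of Nadia and Pargana North with Scientific Hatchery and Transgenic Mosaic 1, called 1 of 74 genes in telencephalon (1.35%, against 1.91% of all genes), 0 in midbrain (against 0.786%) and 0 for the difference between regions (against 0.0192%). At an unadjusted p under 0.05 there were 13, 19 and 3 genes of the 74, and 15.4%, 11.4% and 4.32% of all genes. The error of this contrast came from arrays within populations. Its p-values therefore do not measure the spread between populations of a class. The gene called was cyp39a1, lower in the wild fish with a difference of -0.68 (SE 0.15, adjusted p = 0.014). Its values were 9.43 to 11.14 (median 10.55) in 8 wild and 10.26 to 11.81 (median 10.98) in 7 domesticated telencephalon arrays, and these overlapped. Without Pargana North the difference was -0.15 and without Scientific Hatchery -0.36, and without T57 it did not pass (-0.58, adjusted p = 0.076). In midbrain the smallest adjusted p was 0.052, for cyp2j20 (-0.44, SE 0.11).

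None of the 15 steroid-making enzymes passed between wild and domesticated fish. In telencephalon HSD11B2 had the largest difference, -1.07 (SE 0.41, unadjusted p = 0.016, adjusted p = 0.20), with 6.05 to 8.71 (median 6.53) in wild and 6.41 to 9.98 (median 8.10) in domesticated arrays. CYP19A1 differed by -0.55 (SE 0.21, adjusted p = 0.20) in telencephalon and by -0.38 (SE 0.21, adjusted p = 0.52) in midbrain. cyp17a2 differed by 0.19 (SE 0.24) and 0.59 (SE 0.23, adjusted p = 0.28), cyp21a2 by 0.15 (SE 0.11) and 0.25 (SE 0.11, adjusted p = 0.35), and CYP11A1 (ENSDARG00000002347) by -0.32 (SE 0.22) and 0.46 (SE 0.21, adjusted p = 0.39).

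Of the others, the telencephalon and midbrain differences were 0.41 (SE 0.30) and 0.47 (SE 0.29) for cyp11c1, -0.22 (SE 0.16) and 0.00 (SE 0.16) for CYP17A1, 0.08 (SE 0.28) and 0.17 (SE 0.27) for CYP11A1 (ENSDARG00000092696), -0.29 (SE 0.26) and 0.14 (SE 0.25) for hsd11b1la, and -0.23 (SE 0.32) and 0.43 (SE 0.31) for hsd3b1. They were -0.30 (SE 0.15) and 0.02 (SE 0.14) for hsd17b2, -0.01 (SE 0.10) and 0.01 (SE 0.10) for hsd3b2, 0.08 (SE 0.16) and -0.13 (SE 0.16) for SRD5A1, 0.01 (SE 0.12) and -0.11 (SE 0.12) for SRD5A2, and -0.06 (SE 0.13) and -0.04 (SE 0.13) for SRD5A3. HSD11B2 differed by -0.30 (SE 0.40) in midbrain.

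The regions were also averaged per number, a setting chosen after seeing the data that leaves 15 values per gene. Then 6 of 74 genes passed among populations (8.11%, against 4.85% of all genes). At an unadjusted p under 0.05 there were 23 of the 74 genes, against 22% of all genes. Those that passed the adjusted threshold were sult3st1, cyp4t8, cyp2j20, cyp39a1, sult3st4 and CYP11A1 (ENSDARG00000002347). The last had an F of 8.47 (adjusted p = 0.049), while hsd3b1 (F 6.77, adjusted p = 0.077) and CYP11A1 on the row ENSDARG00000092696 (F 5.96, adjusted p = 0.095) did not pass. For wild minus domesticated, 1 of 74 passed (1.35%, against 1.47% of all genes), and the 1 lower gene stands against 0.844% of all genes. It was cyp2j20, with a difference of -0.41 (SE 0.08, adjusted p = 0.029).

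In the partner lists, STAR, which delivers cholesterol to the side-chain cleavage enzyme, differed among populations in telencephalon (F 10.2, adjusted p = 0.0081) and in midbrain (F 12.9, adjusted p = 0.0037). It was among 2 and 3 genes of 24 that passed in the respective regions. For tspo the wild minus domesticated difference was 0.54 (SE 0.14, adjusted p = 0.045) in telencephalon and 0.60 (SE 0.14, adjusted p = 0.030) in midbrain. Of the 16 steroid receptors and regulators 1 passed among populations in each region, and PAQR5, a membrane progestin receptor gene, differed by -0.80 between wild and domesticated telencephalon (SE 0.19, adjusted p = 0.028). Of the 33 other enzymes 2 passed in telencephalon and 1 in midbrain, and of the 25 genes of xenobiotic and retinoid sensing 0 passed in either region. Among all genes, 6.44% passed the F test in telencephalon and 3.29% in midbrain.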

How the data were processed

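Trizol-extracted RNA of 31 brain samples was copied into Cy3-labelled cDNA with random primers for 1-colour NimbleGen arrays, per the labels' protocols. The deposited log2 values, 1 per Ensembl gene, were made by the authors with RMA on the Zv9 build, per the submitters' processing notes. That the scale is log2 follows from the values, whose array medians are 9.57 to 9.74. Nothing was rescaled or filtered. The number of arrays limits the precision. Hybridization batches, dissection borders, tanks and families were not known from the labels. The p-values measure the spread between arrays within groups, pooled over both regions. The main fit took all arrays as separate, though 15 numbers occur in both regions. For wild minus domesticated they do not measure the spread between populations of a class.

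The table's 15648 genes were fitted with limma 3.58.1 (R 4.3.3, statmod 1.5.0), with 8 means, 1 per region and population, plus a separate sex effect for telencephalon and for midbrain (residual df 21, prior df 2.92). Benjamini-Hochberg adjustment ran over all genes at a threshold of 0.05, and populations were compared by a moderated F test. A row without a gene (0.00639% of rows) was left out. Symbols, matched for 13251 gene IDs, chose the genes and their names. Many are written as for human genes, and a pair of symbols (CYP11A1, CYP4V2) each name 2 rows. RefSeq (GRCz12tu) held 66 of 72 symbols and was used for neighbours and synonyms only. The enzymes, the lists (written from general knowledge) and the tests were chosen with earlier results of these data known.

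Every steroid-making enzyme was named in each comparison, other enzymes where they passed (at most 12 per direction) or, up to 3 per role, by smallest p, and of each list up to 4 that passed. Array numbers pair the regions. For all 15 numbers the deviations from the group means correlated above 0.1 (0.121 to 0.542, median 0.381), 12 of 15 best with their own number. With sex removed, 13 of 15 were above 0.1. The alternatives tried were a dim-gene filter, other moderation, array weights, other scalings, averaged symbols, a threshold of 0.01, no sex term, regions fitted alone, number blocks, and leaving out each array, each population or Pargana North 21, and, added after seeing the data, the 3 telencephalon arrays that correlate least, M12 with M109, and means per number. The fit was tested on simulated data.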

Additional observations from a re-analysis of the deposited data

Results flagged for a closer look

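In 21 of 287 groups of 4 arrays, 1 array stood apart from the other 3, its gap to the nearest one being above Dixon's critical share of the group's range. Chance alone gives about 14.3 of 287 if the groups are independent and normal, but the regions share most numbers. The groups are those of the 41 enzyme genes tested this way, which were not a random draw from the set.

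Among the steroid-making enzymes, cyp11c1 was 8.16 in T106 of the Nadia telencephalon (nearest 6.76), and hsd11b1la was 6.66 in T109 of the Transgenic Mosaic 1 telencephalon (nearest 4.70), the array with the highest eye and pineal marker score in telencephalon (2.26). cyp17a2 was 7.84 in T63 of that group (nearest 7.32). hsd3b2 was 5.62 in T13 of the Pargana North telencephalon (nearest 5.38) and 5.44 in M106 of the Nadia midbrain (nearest 5.05). SRD5A3 was 10.01 in M106 (nearest 10.27), and CYP11A1 (ENSDARG00000002347) was 5.40 in M123 of the Scientific Hatchery midbrain (nearest 5.66).

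Among sterol and retinoid enzymes, cyp39a1 was 11.20 in M106 of Nadia (nearest 10.93) and 10.71 in M13 of Pargana North (nearest 10.38). cyp27a2 was 10.77 in T98 and 9.28 in M7 (nearest 9.88), both of Nadia. CYP8B1 was 6.58 in M63 of Transgenic Mosaic 1 (nearest 5.95). CYP26A1 was 10.57 in T130 (nearest 11.30) and CYP26B1 8.52 in T98 (nearest 7.68), both of the Nadia telencephalon.

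Among P450 genes of foreign compounds and fatty acids, cyp2ae1 was 6.48 in M21 of Pargana North (nearest 7.39) and cyp2n13 was 6.77 in M99 of Transgenic Mosaic 1 (nearest 5.80). cyp2ad6 was 8.60 in M130 of Nadia (nearest 9.93) and 7.92 in M57 of Scientific Hatchery (nearest 9.25). cyp2j20 was 6.64 in T12 of Transgenic Mosaic 1 (nearest 7.03). Of the sulfotransferases, sult3st4 was 3.98 in M85 of Pargana North (nearest 7.08), and sult2st3 was 11.02 in the same array (nearest 11.33).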

How the results depend on the processing

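The count of enzymes that differed between regions, 24, stayed between 17 and 27 over the settings tried, and between 21 and 26 on leaving out single arrays. The 24 genes all remained called with the replicate block, random (26 called) or fixed (27). The sex counts stayed at 0 in telencephalon, in midbrain and for the difference (0 to 0 without single arrays). The paired fits lost no call reported here, but their higher counts add genes that did not pass in the main fit. They moved no count by over 1.5 times. Under the random block, populations gave 9 in telencephalon and 8 in midbrain, and wild minus domesticated 1 and 0.

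The population counts were less firm. For the settings of this section the counts of all genes are not given, so the shifts cannot be read as particular to these enzymes. In telencephalon, 8 became 4 without the dimmest genes, 3 with array weights, 2 at a threshold of 0.01, 3 with each region fitted alone, 4 on leaving out Pargana North or Scientific Hatchery, 2 on leaving out Transgenic Mosaic 1, 3 when the 3 arrays that correlate least were dropped (added after seeing the data) and 4 to 8 without single arrays. In midbrain, 6 became 3 without the dimmest genes, 13 with array weights, 3 at a threshold of 0.01, 3 without Nadia, 1 without Transgenic Mosaic 1, 10 without those 3 telencephalon arrays and 3 to 9 without single arrays. Wild minus domesticated in telencephalon, 1, became 0 at 0.01 and with the region fitted alone, 2 without Pargana North 21, 4 without Nadia, 2 without Scientific Hatchery and 0 to 2 without single arrays. In midbrain, 0 became 4 with array weights, 1 with the same median, quantile normalization, no sex term, the region fitted alone or without those 3 arrays, 4 without Nadia, 3 without Pargana North, 4 without Scientific Hatchery and 0 to 1 without single arrays. The difference of that contrast between regions stayed at 0 (0 to 0). The causes were not tested, except that leaving out a population removes its own differences and the dim-gene filter removes the dimmest genes themselves. Population calls among the dimmest 25% were sult3st1, sult3st4 and cyp2j20 in both regions, sult1st6 in telencephalon and CYP11A1 (ENSDARG00000092696) in midbrain. No direction reversed. Shifting the arrays to the same median moved the median region difference of all genes from 0.01 to 0.07, and quantile normalization to 0.05. Dim signal limits 34 of the 74 genes, and 7 of the 24 region calls are among them.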

Other observations

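CYP4V2, whose human namesake hydroxylates fatty acids and is tied to a retinal dystrophy, names 2 rows with different Ensembl gene IDs. On the row ENSDARG00000061585 the Transgenic Mosaic 1 arrays T99 and T109 had log2 values of 9.33 each and M99 and M109 had 7.67 and 8.78. T63, T12, M63 and M12 of the same population had 4.83, 4.47, 4.42 and 5.31, and the arrays of the other populations lay between 4.19 and 5.70. The high level thus went with the same numbers, 1 male and 1 female, in both regions. The row ENSDARG00000062132 had 4.16 to 5.72 in telencephalon and 4.24 to 4.97 in midbrain. This symbol was chosen after its values were seen. Both rows were part of the comparisons above and passed none of them, and the pattern by number was not tested.

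The numbers that stand out differ from gene to gene. In sult3st4 and cyp4f3 they are those of T21, T13 and T140 of Pargana North, in cyp3c2 those of T7 and T130 of Nadia, and in CYP4V2 those of T99 and T109 of Transgenic Mosaic 1, each high in both regions. hsd3b1 is different, since M12 and M109 of Transgenic Mosaic 1 were low and T12 and T109 were not.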
